A study of Mus musculus with 12 samples.

Results

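The 8 genes described here encode ion channels of the cardiac pacemaker, together with Shox2, a transcription factor of the pacemaker region. They were taken by symbol from the deposited expression table: Hcn2, Hcn3, Hcn4, Cacna1c, Cacna1d, Cacna1g, Cacna1h and Shox2, which are 8 of 20368 genes in the table. They were chosen by name, with no threshold on a measured value, but by a choice that knew the earlier expression differences of these hearts, so the tests below describe these hearts and are not independent support. Whole read counts could be recovered for all 8. Each value below belongs to a whole embryonic heart of the CD1 mouse strain, profiled by RNA-seq at embryonic day E11.5 or E12.5. The Cre controls were Mesp1Cre;Hira+/fl and the mutants were Mesp1Cre;Hira-/fl, with 3 hearts in each of the 4 groups. HIRA is a chaperone that deposits the histone variant H3.3. All hearts carried Mesp1Cre, which recombines the floxed allele in early cardiogenic mesoderm, so controls kept a normal Hira allele and mutants had a constitutive null allele in place of it. Cells of other origins, such as neural crest, should keep an unrecombined floxed allele in the mutants.

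HCN channels open when the membrane is hyperpolarised, are gated by cyclic AMP, and carry the inward pacemaker current that starts each beat. L-type calcium channels, built on Cacna1c or Cacna1d, carry the upstroke of the nodal action potential and trigger contraction in working muscle. T-type channels, built on Cacna1g or Cacna1h, open at more negative voltages and add to the late part of the pacemaker depolarisation. Shox2 is expressed in the sinus venosus and the developing sinoatrial node, where it represses Nkx2-5. In the mm10 coordinates of the files, the HCN genes are Hcn2 at chr10:79716634-79736108, Hcn3 at chr3:89146074-89160196 and Hcn4 at chr9:58823512-58860955. The L-type genes are Cacna1c at chr6:118592319-118780324 and Cacna1d at chr14:30039949-30491156, the T-type genes Cacna1g at chr11:94408391-94474198 and Cacna1h at chr17:25374285-25433783, and Shox2 lies at chr3:66971727-66981771.

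The libraries held 11994148 to 17483982 counts in recovered genes. Reads of the whole Hira gene ranged over the hearts from 68.3 to 85.4 CPM in E11.5 controls, 56.6 to 74.4 in E11.5 mutants, 60.8 to 85.8 in E12.5 controls and 70.9 to 80.3 in E12.5 mutants. CPM are counts scaled to library size after TMM normalisation. The groups overlapped, and a gene total that includes exons outside the deleted part does not check the genotype. Y-linked reads marked 3 of 3 controls but 1 of 3 mutants as male at E11.5, and 1 of 3 in either group at E12.5, so sex and genotype were partly confounded at E11.5. The 10 pan-cardiomyocyte markers summed to between 16220 and 20870 CPM in every group. None of the 12 sinus node markers was under 0.1 CPM in all hearts.

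Compared per length, in RPKM (CPM divided by gene length in kilobases), the calcium channel Cacna1h was the most abundant of the 8 genes and Hcn3 the least, with means over the 12 hearts of 17.4 and 0.269. In control hearts at E12.5 the order was Cacna1h, at 19.4 ± 3.23 RPKM (SD, n = 3), then Cacna1c at 16.7 ± 4.08, Hcn4 at 4.5 ± 0.379, Cacna1d at 3.67 ± 0.802, Shox2 at 3.26 ± 2.52, Cacna1g at 3.23 ± 0.782, Hcn3 at 0.281 ± 0.0403 and Hcn2 at 0.149 ± 0.104. Cacna1h and Cacna1c overlapped between hearts, as did the run from Hcn4 to Cacna1g and the pair of Hcn3 and Hcn2. The gaps between Cacna1c and Hcn4 and between Cacna1g and Hcn3 were larger than the spread. In the mutants at E12.5 Hcn2 stood above Hcn3, with 0.809 ± 0.228 against 0.260 ± 0.05 RPKM and no overlap between hearts. In whole hearts, fewer cells of a type and less RNA per cell cannot be told apart.

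**Figure D1:**
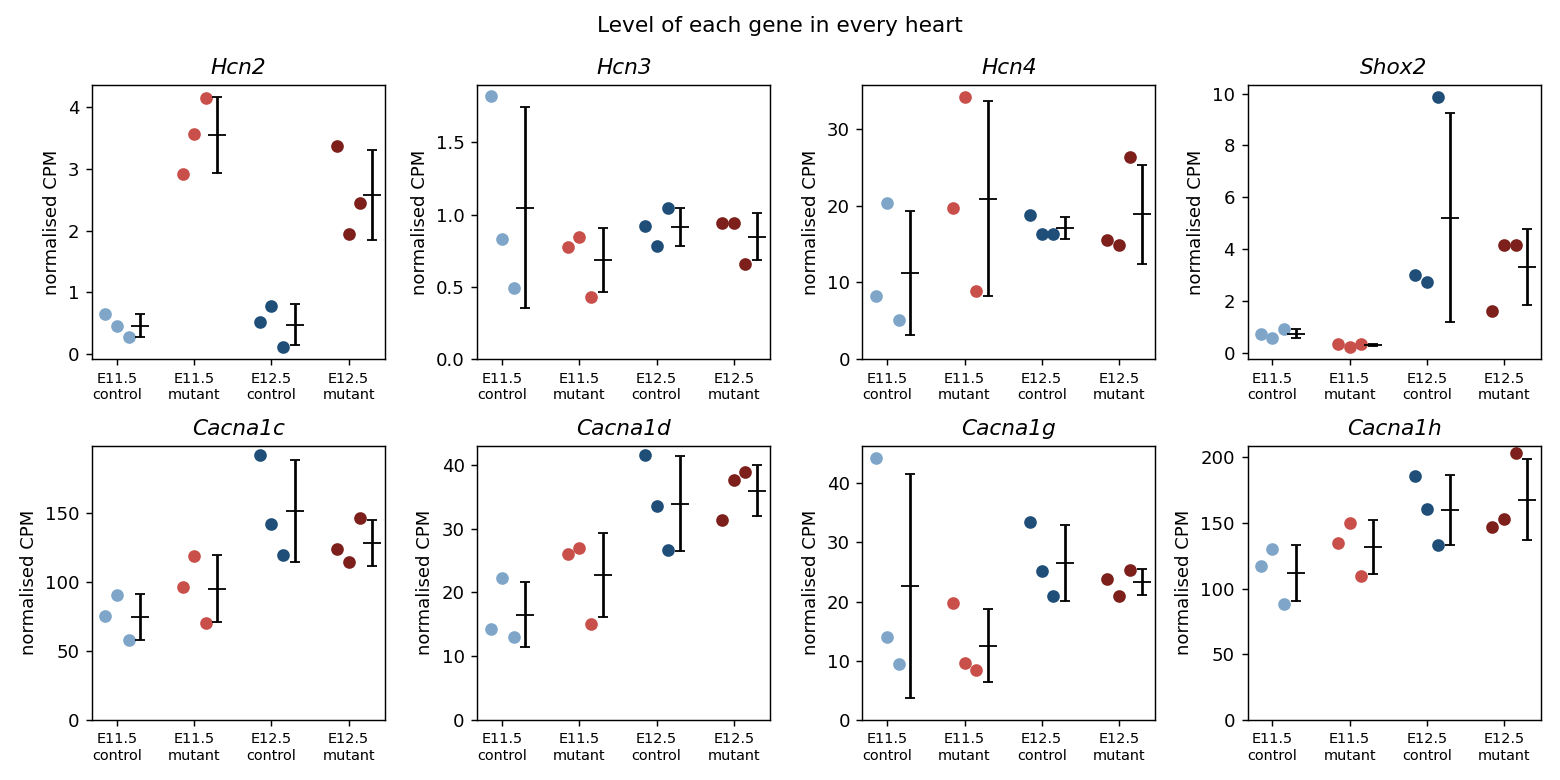
Level of each of the 8 genes in every heart, in CPM after TMM scaling on linear axes. Points are single hearts in the order of their replicate numbers, and the black bar beside them is the mean with its SD over 3 hearts. The Hcn2 points of the mutants lie above all control points at both stages, while the other 7 genes overlap between genotypes except for Shox2 at E11.5, where the mutants are lower.

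Hcn2, a fast-gating HCN channel, was near the detection limit in control hearts and was higher in every mutant heart. At E11.5 the controls had 0.651, 0.448 and 0.280 CPM and the mutants 2.91, 3.56 and 4.14 CPM, which are 10, 7 and 4 reads against 45, 59 and 48. At E12.5 the controls had 0.525, 0.784 and 0.123 CPM, from 8, 14 and 2 reads, and the mutants 3.37, 1.94 and 2.44 CPM, from 50, 33 and 37 reads. The groups did not overlap at either stage. The lowest mutant value, 1.94 CPM, was above the highest control value, 0.784 CPM.

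In the model adjusted for stage, Hcn2 was 6.28-fold higher in mutants (log2 fold change 2.65, SE 0.32, 95% interval 1.96 to 3.34, edgeR quasi-likelihood test, adjusted p = 0.000399, n = 6 against 6) and ranked 29 of 12270 genes by p. Calls needed an adjusted p no higher than 0.05 together with a 1.5-fold or larger change. Hcn2 was the only member called of the 7 tested, and 3.22% of all genes were called in that comparison, and 1.85% were called higher. The exact two-sided permutation test within stages gave p = 0.005, the smallest value it allows. Hcn2 passed the filter on low values, a mean of 0.5 RPKM, only through the mutants, since its control means were 0.144 RPKM at E11.5 and 0.149 at E12.5. Without the filter the stage-adjusted log2 fold change was 2.64 (SE 0.33, edgeR adjusted p = 0.000142). Hcn2 entered 17 alternative fits and was called in these, with log2 fold changes from 1.16 to 2.94 and adjusted p from 5.75e-12 to 0.00167. The lowest value came from limma on log2(RPKM + 0.5), a scale that understates the change of low genes. Hcn2 was filtered out when genes needed a mean RPKM of at least 5, or without E11.5 Mutant 2 or without E11.5 Mutant 3. With no filter and each of the 12 hearts left out in turn, an alternative added after seeing the data, it was called in 12 of 12 fits, with log2 fold changes from 2.46 to 2.93 and edgeR adjusted p from 5.56e-05 to 0.000605.

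At E11.5 alone, Hcn2 was 7.51-fold higher (log2 fold change 2.91, SE 0.39, edgeR adjusted p = 0.042) and ranked 12 of 12197 genes. It was the 1 member called of 6 tested, against 0.115% of all genes called and 0.0492% called higher. It again passed the filter only through the mutants, with a mean over the 6 hearts of 0.618 RPKM. The call at this stage was lost in limma (adjusted p = 0.0503) and in each of the 5 fits with 1 heart left out that still tested it, without control 1, 2 or 3 or mutant 1 or 2 (adjusted p = 0.136, 0.108, 0.274, 0.0688 and 0.117). The log2 fold change in those 5 fits stayed between 2.66 and 3.24, and that in limma was 1.31. Without the filter it was 2.90 (SE 0.42, edgeR adjusted p = 0.0115), and the call there was lost in 1 of 6 fits with a heart left out, that without control 3 (adjusted p = 0.153).

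At E12.5 Hcn2 fell just under the filter, with a mean of 0.482 RPKM. Without the filter it was 5.25-fold higher in mutants (log2 fold change 2.39, SE 0.45, 95% interval 1.44 to 3.34, edgeR adjusted p = 0.00422), in a fit where 2.94% of genes were called. It was called there in 6 of 6 fits with a heart left out, with log2 fold changes from 1.94 to 2.98. The exact permutation test gave p = 0.1 at each stage, the smallest value that 3 against 3 hearts allow. The mutant effect did not differ detectably between stages, with a difference of log2 fold changes of -0.51 (SE 0.67, 95% interval -1.96 to 0.94, edgeR adjusted p = 0.956). With sex as a covariate the stage-adjusted log2 fold change was 2.65. Among male hearts at E11.5 the mutant had 4.14 CPM and the controls 0.280 to 0.651, and among male hearts at E12.5 the mutant had 3.37 CPM and the control 0.123.

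Some neuron markers were higher in the mutants and others were not. The summed level of the 15 markers was 129.7 to 142.9 CPM in controls and 138.1 to 206.6 in mutants at E11.5, and 118.8 to 141.6 against 152.4 to 162.6 CPM at E12.5, so the groups overlapped at E11.5. Hand2, which is also expressed in the heart, made up most of the sum, with means of 100 and 106.6 CPM in controls and mutants at E11.5 and 107.4 and 103 CPM at E12.5. In the stage-adjusted model 4 of the 10 markers tested were called higher (Prph, Sncb, Stmn2 and Tubb3) and none lower. Of all genes, 3.22% were called in that model. Prph, a peripheral neuron intermediate filament, had 0.513 ± 0.271 CPM in controls and 3.93 ± 0.775 CPM in mutants at E12.5 (SD, n = 3). Phox2a, a defining factor of autonomic neurons, had a stage-adjusted log2 fold change of -0.75 (edgeR adjusted p = 0.273). Elavl4, a neuronal RNA-binding protein, had mean levels of 3.43 and 2.89 CPM in controls and mutants at E11.5 and 4.07 and 3.41 CPM at E12.5. Dbh, the noradrenaline-synthesising enzyme, had 0.424 and 0.0993 CPM at E11.5 and 0.478 and 0.192 CPM at E12.5.

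The summed level of 12 skeletal muscle markers was 417.8 to 450.1 against 781.4 to 1004 CPM at E11.5 and 294.4 to 466.3 against 783.0 to 864.2 CPM at E12.5. Most of that sum came from Acta1, the skeletal alpha-actin that embryonic heart also expresses, and Tnni2, a fast troponin I. Acta1 had means of 293.2 and 516.6 CPM in controls and mutants at E11.5 and 205.5 and 371.5 CPM at E12.5, and Tnni2 67.2 and 250 CPM at E11.5 and 56.4 and 335.9 CPM at E12.5. Ckm, the muscle creatine kinase, had lower means in mutants, with 18.3 and 13.1 CPM at E11.5 and 66.5 and 48.7 CPM at E12.5. The defining factor Myod1 was at most 0.0863 CPM at E11.5, and at E12.5 it had 0 to 0.224 CPM in controls and 0.270 to 0.998 in mutants. Endocardial and endothelial markers summed to 1176 to 1403 CPM in controls and 1426 to 2003 in mutants at E11.5. They overlapped at E12.5, with 1469 to 1511 against 1481 to 1835 CPM. Erythroid markers overlapped at E11.5, with 4357 to 5460 CPM in controls and 4433 to 5673 in mutants. At E12.5 they summed to 3826 to 6375 against 2109 to 2730 CPM. The part of these marker lists in the Hcn2 difference was not tested.

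The 250 bases before its annotated start site in RefSeq (GRCm38.p6, plus strand, chr10:79716384-79716633) are shown because Hcn2 was the member that differed. The same window is given for Hcn4 (plus strand, chr9:58822699-58822948), the abundant HCN gene that was not called, and for Shox2 (minus strand, chr3:66981772-66982021), which rose with stage. Capitals mark each GAGAG or its reverse complement CTCTC, searched on both strands.
Hcn2: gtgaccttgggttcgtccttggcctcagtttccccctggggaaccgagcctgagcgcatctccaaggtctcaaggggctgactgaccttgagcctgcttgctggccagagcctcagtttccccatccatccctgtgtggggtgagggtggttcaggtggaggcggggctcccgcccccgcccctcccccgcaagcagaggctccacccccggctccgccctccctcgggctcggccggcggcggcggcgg
Hcn4: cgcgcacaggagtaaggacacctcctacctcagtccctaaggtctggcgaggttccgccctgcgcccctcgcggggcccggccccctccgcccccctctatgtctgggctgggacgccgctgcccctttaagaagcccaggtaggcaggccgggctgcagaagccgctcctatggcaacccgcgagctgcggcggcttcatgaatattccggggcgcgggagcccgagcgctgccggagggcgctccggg
Shox2: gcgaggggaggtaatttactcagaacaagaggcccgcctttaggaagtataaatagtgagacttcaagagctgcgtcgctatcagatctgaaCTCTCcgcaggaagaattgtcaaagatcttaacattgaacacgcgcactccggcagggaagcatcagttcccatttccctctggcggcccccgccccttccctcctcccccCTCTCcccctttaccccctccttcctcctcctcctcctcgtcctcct
The Hcn2 and Hcn4 windows were rich in G and C, with 70.4% and 71.2% and 16 and 25 CpG dinucleotides, against medians of 52.4% and 6 over 32851 RefSeq windows of that length. Neither held the searched motif, which 54.7% of all windows hold. The Shox2 window held it at 2 positions, starting 158 and 47 bases before the start site, and had a GC content of 55.6%. RefSeq windows were matched for 5 of the 8 members.

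Hcn4, the main HCN channel of the sinoatrial node, was the most abundant of the 3 HCN members in all groups and varied widely between hearts of a group at E11.5. The E11.5 controls had 8.27, 20.4 and 5.11 CPM and the mutants 19.6, 34.2 and 8.89 CPM. The E12.5 controls had 18.8, 16.2 and 16.3 CPM and the mutants 15.5, 14.8 and 26.3 CPM. The genotypes overlapped at both stages. Replicate 2 was the highest heart and replicate 3 the lowest in both E11.5 groups.

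The stage-adjusted log2 fold change of Hcn4 was 0.51 (SE 0.34, 95% interval -0.21 to 1.24, edgeR adjusted p = 0.458). At E11.5 it was 0.89 (SE 0.55, edgeR adjusted p = 0.681) and at E12.5 0.14 (SE 0.20, edgeR adjusted p = 0.73). The E11.5 value turned to -0.33 with sex as a covariate. In that fit it rests on mutant 3, the only male mutant at E11.5, against the 3 male controls. Without the covariate the 95% interval at E11.5 ran from -0.35 to 2.14. At this spread between hearts only larger changes were detectable.

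Hcn3 was low in all hearts and showed no detectable difference. Its levels were 1.82, 0.832 and 0.489 CPM in E11.5 controls and 0.777, 0.845 and 0.432 CPM in E11.5 mutants. They were 0.919, 0.784 and 1.05 CPM in E12.5 controls and 0.944, 0.939 and 0.659 CPM in E12.5 mutants. Hcn3 never passed the filter, and without it the stage-adjusted log2 fold change was -0.36 (SE 0.33, edgeR adjusted p = 0.672). The annotated span of Hcn3, introns included, overlaps that of Pklr on the other strand by 711 bases. Whether the counting used strand is not given in the sources used here.

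Of the summed RPKM of Hcn2, Hcn3 and Hcn4, Hcn4 made up 84.1% ± 9.57 (SD, n = 3) in E11.5 controls and 76.9% ± 13.0 in mutants, and 91.3% ± 1.30 against 81.4% ± 6.27 at E12.5. The share of Hcn2 was 4.97% ± 2.30 in E11.5 controls and 19.9% ± 12.7 in mutants, and 3.01% ± 2.16 against 13.9% ± 5 at E12.5. The lowest mutant share of Hcn2, 9.67%, was above the highest control share, 6.93%.

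**Figure D2:**
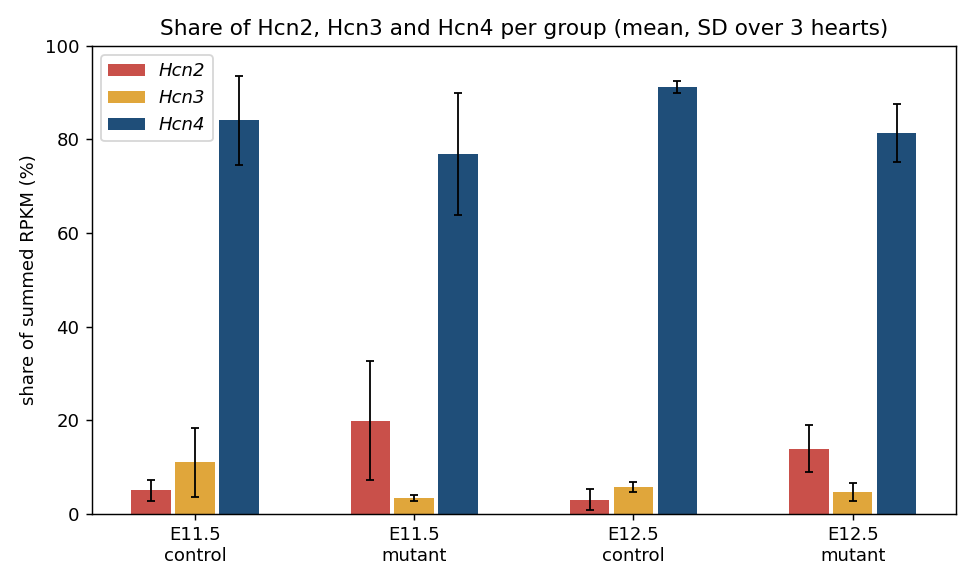
Share of Hcn2, Hcn3 and Hcn4 in their summed level per length (RPKM, in %). Bars are means and error bars SDs over 3 hearts per group, and the Hcn2 bar stands at 4.97% in controls and 19.9% in mutants at E11.5 and at 3.01% and 13.9% at E12.5, while Hcn4 keeps most of the sum in each group.

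Neither L-type channel gene differed detectably between genotypes. Cacna1c, the L-type channel of working myocardium, had 75.5, 90.7 and 57.6 CPM in E11.5 controls and 95.9, 119 and 70.1 CPM in E11.5 mutants. At E12.5 it had 192, 142 and 120 CPM in controls and 124, 114 and 146 CPM in mutants. The stage-adjusted log2 fold change was 0.05 (SE 0.17, 95% interval -0.31 to 0.41, edgeR adjusted p = 0.923). The values by stage were 0.35 at E11.5 and -0.24 at E12.5, and their difference was -0.59 (SE 0.30, edgeR adjusted p = 0.956).

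Cacna1d, the L-type channel that opens at more negative voltages and is needed for sinoatrial pacemaking, had 14.3, 22.3 and 12.9 CPM in E11.5 controls and 26.1, 27.0 and 15.1 CPM in E11.5 mutants. At E12.5 it had 41.5, 33.5 and 26.7 CPM in controls and 31.4, 37.6 and 38.9 CPM in mutants. The genotypes overlapped at both stages. The stage-adjusted log2 fold change was 0.27 (SE 0.17, 95% interval -0.10 to 0.64, edgeR adjusted p = 0.441). The annotated spans of Cacna1d and Cacna1c, introns included, overlap those of Dcp1a and Dcp1b on the other strand by 11921 and 21166 bases. The gene models used for their lengths have 9252 and 9053 bases, and the overlap within exons was not measured.

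The T-type genes did not differ detectably either. Cacna1g had 44.3, 14.0 and 9.51 CPM in E11.5 controls and 19.7, 9.60 and 8.37 CPM in E11.5 mutants. At E12.5 it had 33.5, 25.3 and 20.9 CPM in controls and 23.7, 21.0 and 25.3 CPM in mutants. Control 1 at E11.5 lay far above the other hearts of that stage. The E11.5 log2 fold change of -0.85 (SE 0.55, edgeR adjusted p = 0.703) became 0.10 without that heart, and the stage-adjusted value was -0.50 (SE 0.33, edgeR adjusted p = 0.449).

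Cacna1h, the T-type gene with the higher level, had 117, 130 and 88.2 CPM in E11.5 controls and 135, 150 and 110 CPM in E11.5 mutants. At E12.5 it had 186, 161 and 133 CPM in controls and 147, 153 and 203 CPM in mutants. Its stage-adjusted log2 fold change was 0.15 (SE 0.12, 95% interval -0.11 to 0.42, edgeR adjusted p = 0.572), the narrowest interval of the 7 members tested. Of the summed L-type and T-type RPKM, Cacna1h made up 45.0% to 51.4% and Cacna1c 30.5% to 38.2% in the means of the 4 groups.

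**Figure D3:**
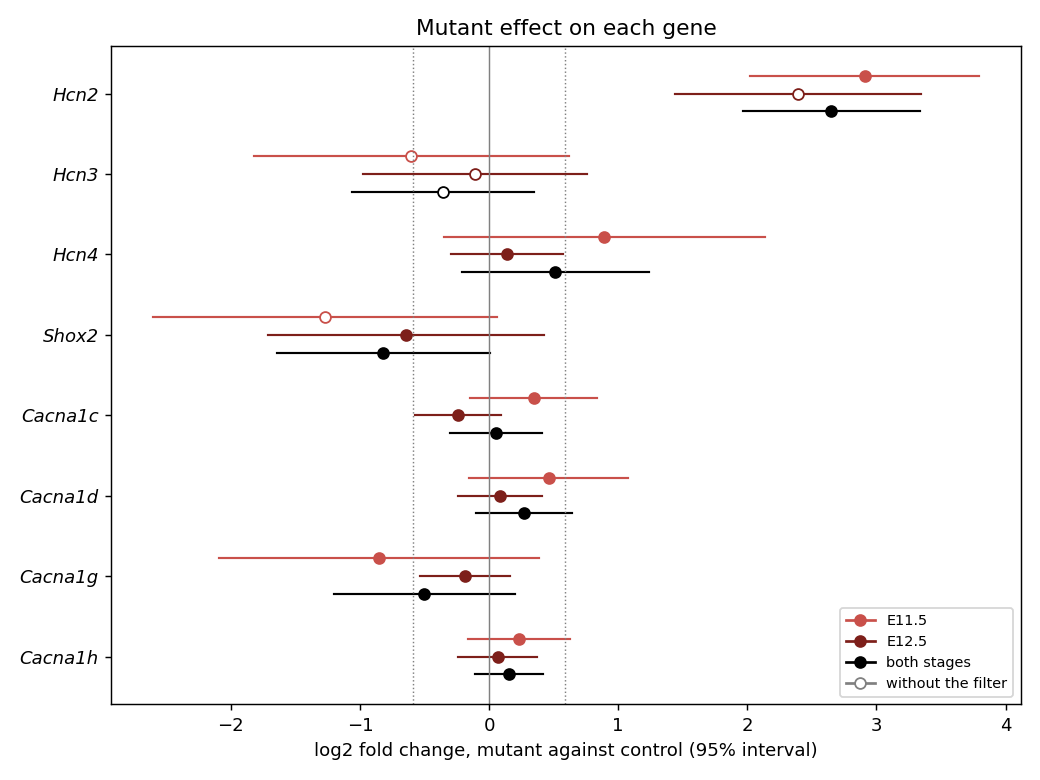
Log2 fold change of each gene in mutants against controls, with its 95% interval, at E11.5, at E12.5 and adjusted for stage. Open points are values from the fit without the filter on low values, for genes that the filter removed, and dotted lines mark a 1.5-fold change. The 3 intervals of Hcn2 lie wholly to the right of the dotted lines, and every interval of the other 7 genes reaches across 0.

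Shox2 was low at E11.5 and did not pass the test for genotype. The E11.5 controls had 0.716, 0.576 and 0.909 CPM, from 11, 9 and 13 reads, and the mutants 0.324, 0.241 and 0.345 CPM, from 5, 4 and 4 reads. All 3 mutants lay below all 3 controls, as happened in one direction or the other for 16.3% of the genes tested at that stage. Counting Hcn2, 2 of the 8 members did not overlap at E11.5 and 1 of the 8 at E12.5, where 26.3% of the genes tested did not. These shares cover only genes that passed the filter on low values. Shox2 and Hcn3 did not pass it at E11.5, nor Hcn2 and Hcn3 at E12.5. Hcn2 was the 1 member of 8 without overlap in the same direction at both stages, against 6.53% of the genes tested.

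At E12.5 the Shox2 controls had 3.02, 2.74 and 9.85 CPM and the mutants 1.62, 4.17 and 4.15 CPM. Control 3, the highest heart, was the only male control at that stage. The stage-adjusted log2 fold change was -0.82 (SE 0.38, 95% interval -1.64 to 0.01, edgeR adjusted p = 0.261). It was -1.27 at E11.5 without the filter (SE 0.62, edgeR adjusted p = 0.59) and -0.64 at E12.5 (SE 0.49, edgeR adjusted p = 0.486). The E12.5 value was 0.21 without control 3. The annotated span of Shox2, introns included, overlaps that of Rsrc1 on the other strand by 382 bases. The 12 sinus node markers summed to 1036 to 1233 CPM in controls and 762.0 to 977.0 in mutants at E11.5. At E12.5 they summed to 1107 to 1246 against 968.4 to 1158 CPM. Igfbp5 made up most of the sum, with means of 745.6 and 542.8 CPM at E11.5 and 790.6 and 698.8 CPM at E12.5. In the stage-adjusted model 1 of the 12 markers was called higher and none lower, against 3.22% of all genes called. The median log2 fold change of the 12 was -0.21, against 0.00 for all genes. At E11.5 cushion mesenchyme markers summed to 3686 to 3991 CPM in controls and 2567 to 3479 in mutants. Epicardial and mesothelial markers summed to 712.8 to 1024 against 605.4 to 707.1 CPM. At E12.5 the cushion mesenchyme sums overlapped, with 4122 to 4999 against 3719 to 4170 CPM. The epicardial and mesothelial sums were then higher in mutants, with 460.9 to 666.7 against 683.6 to 733.9 CPM. The part of these lists in the Shox2 values was not tested.

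No member other than Hcn2 was called in any comparison of genotypes. At E12.5, 0 of the 6 members tested were called by edgeR, against 2.95% of all genes, and none of the 6 had an unadjusted p under 0.05, against 21.4% of all genes. DESeq2 called 0 of the 6 as well. Hcn2 and Hcn3 were not among these 6, because both fell under the filter at E12.5. Without the filter Hcn2 was called there (edgeR adjusted p = 0.00422). The difference between stages called none of the 7 members tested and none of 12270 genes in edgeR, where 551 genes (4.49%) had an unadjusted p under 0.05 and none of these was a member. DESeq2 called 41 genes and no member.

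Between E11.5 and E12.5 several of these genes rose in control hearts. Shox2 was 7.05-fold higher at E12.5 (log2 fold change 2.82, SE 0.54, edgeR adjusted p = 0.0208), Cacna1d 2.05-fold (1.04, SE 0.22, adjusted p = 0.0253) and Cacna1c 2.02-fold (1.02, SE 0.19, adjusted p = 0.0192). These were 3 of the 6 members tested, against 5.28% of all genes called and 2.85% called higher. Shox2 passed the filter here only through the E12.5 hearts, with control means of 0.460 RPKM at E11.5 and 3.26 at E12.5, and without the filter its log2 fold change was 2.81 (SE 0.48, edgeR adjusted p = 0.00266). The rise of Cacna1h, 0.52 on the log2 scale (SE 0.16, edgeR adjusted p = 0.0579), did not pass. Shox2, Cacna1c, Cacna1d and Cacna1h did not overlap between stages in controls, as was true of 37.4% of all genes tested. In mutants Shox2, Cacna1d and Cacna1g, 3 of the 8 members, did not overlap between stages, as was true of 17.4% of 12238 genes. That contrast was not tested on its own.

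Hcn4 and Cacna1g each depended on 1 control heart in this contrast. Hcn4 had a log2 fold change of 0.60 (SE 0.38, edgeR adjusted p = 0.298), which became 1.34 (adjusted p = 0.00266) without E11.5 control 2 and ranged from 0.26 to 1.34 over all alternatives. Cacna1g had 0.23 (SE 0.45, edgeR adjusted p = 0.759), which became 1.17 (adjusted p = 0.0406) without E11.5 control 1. The Cacna1c call was lost without E11.5 control 1 or 3 or E12.5 control 1 or 2 (edgeR adjusted p = 0.0528, 0.0547, 0.0861 and 0.0615). The Cacna1d call was lost without the same hearts (edgeR adjusted p = 0.0658, 0.0692, 0.121 and 0.0889). The Shox2 call was lost without E11.5 control 1 or 3 or E12.5 control 1 (edgeR adjusted p = 0.0583, 0.0568 and 0.0565), and the log2 fold change was 1.97 without E12.5 control 3. With no filter, Shox2 was called in 5 of 6 fits with a heart left out and lost without E11.5 control 3 (edgeR adjusted p = 0.0671).

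Sex and gene length moved with this contrast. All E11.5 controls were male and 1 of 3 E12.5 controls was. With sex as a covariate, Cacna1c had a log2 fold change of 0.68 and Cacna1d 0.69, and neither was called. Shox2 had 3.74 in the same fit. These values rest on E12.5 control 3, the only male of its group, against the 3 male E11.5 controls. They are therefore not a comparison of 3 against 3 hearts. For Shox2 that heart was the highest, with 9.85 CPM. The calcium channel members are long genes, with gene models of 8223 to 9252 bases, against 3195 for Hcn2, 3798 for Hcn4 and 1595 for Shox2. The longest genes, 2454 genes of at least 4764 bases, had a median log2 fold change of 0.22 from E11.5 to E12.5 in controls and the shortest 2454 genes -0.26, while the median of all genes was 0.01. With length and GC offsets Cacna1c rose by 0.69 on the log2 scale (edgeR adjusted p = 0.0257) and Cacna1d by 0.71 (adjusted p = 0.0368), and Cacna1h had 0.14 (adjusted p = 0.326).

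Within the E11.5 groups, the hearts with high Hcn4 also had high Cacna1c, Cacna1d and Cacna1h. E11.5 Mutant 3 lay below its group mean by 0.99 on the log2 scale for Hcn4, 0.40 for Cacna1c, 0.53 for Cacna1d and 0.25 for Cacna1h, and the longest genes lay 0.23 below in that heart. E11.5 control 2 lay above its group mean by 1.05 for Hcn4, 0.31 for Cacna1c, 0.47 for Cacna1d and 0.24 for Cacna1h, and the longest genes lay 0.09 above. In E12.5 Mutant 3 the same genes lay 0.12 to 0.52 above their group mean, while the longest genes were at 0.00. The part of gene length in the spread of these genes was not tested.

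**Figure D4:**
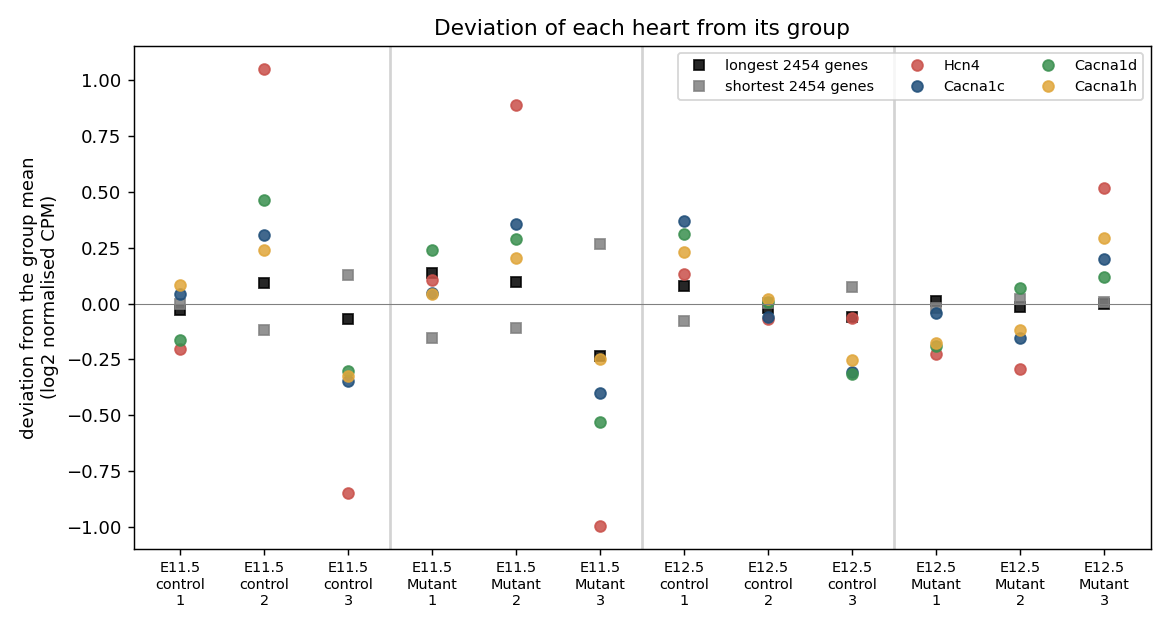
Deviation of each heart from the mean of its own group, in log2 CPM, for Hcn4 and the calcium channel genes Cacna1c, Cacna1d and Cacna1h, beside the median deviation of the 2454 longest and the 2454 shortest genes. In E11.5 Mutant 3 the longest genes are at -0.23 and Hcn4 at -0.99, and in E12.5 Mutant 3 the longest genes are at 0.00 and Hcn4 at 0.52.

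Over the 12 hearts, the genes whose standardised log2 levels were most like those of Hcn4 were Ank3, Tpcn1 and Ap1b1, with root mean square differences of 0.291, 0.300 and 0.311 SD. Those most like Shox2 were Gpd1, Col6a6 and Mpzl2, at 0.388, 0.425 and 0.438 SD. Those most like Hcn2, named after their values were seen, were Ass1, Fbxo2 and Txnrd3, at 0.255, 0.268 and 0.269 SD. These are descriptions over hearts that share libraries and groups.

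Of the genes in 5 other pathway lists, 43 were tested in the stage-adjusted model and 3 were called, Cacna1a, Adora1 and Kcne3. That is 6.98% of them, against 3.22% of all genes. Among the other calcium channel alpha1 subunits, 2 of 6 genes were tested in the stage-adjusted model and 1 was called. This was Cacna1a, the P/Q-type channel of neurons, with 8.33, 8.13 and 9.44 CPM in E11.5 controls and 16.8, 13.3 and 17.6 CPM in mutants, and 15.4, 13.7 and 10.1 against 15.04, 16.7 and 18.8 CPM at E12.5. The groups were separate at E11.5 and overlapped at E12.5. Its stage-adjusted log2 fold change was 0.62 (SE 0.14, edgeR adjusted p = 0.0147), and it fell under the 1.5-fold threshold in 7 of 19 alternatives, with 0.47 in limma as the lowest. Cacna1a had the highest mean level of its list, 1.72 RPKM, and the T-type gene Cacna1i the lowest, 0.00584 RPKM.

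Among 13 auxiliary subunits of calcium channels, none of the 9 tested was called between genotypes. Cacna2d1, an alpha2-delta subunit that raises the surface density of channels, was lower by less than the fold threshold. It had 110, 87.6 and 83.0 CPM in E12.5 controls and 61.2, 67.2 and 62.7 CPM in E12.5 mutants, a log2 fold change of -0.56 (SE 0.11, edgeR adjusted p = 0.016), and -0.40 adjusted for stage (SE 0.11, edgeR adjusted p = 0.0458). It reached the fold threshold at E12.5 in 3 of 15 alternatives, without control 2, control 3 or mutant 2, with -0.64 without control 3 as the lowest. In control hearts Cacna2d1 rose by 0.69 on the log2 scale from E11.5 to E12.5 (edgeR adjusted p = 0.0134). The highest level of the list was that of Cacna2d2, 16.9 RPKM, and the lowest that of Cacna2d4, 0.0171 RPKM.

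Among 6 partners of HCN channels, 1 of the 4 tested was called lower and none higher in the stage-adjusted model. Kcne3, a small accessory subunit of voltage-gated channels, had 8.86, 3.52 and 8.88 CPM in E11.5 controls and 1.94, 1.21 and 3.37 CPM in mutants. At E12.5 it had 11.0, 9.07 and 11.7 CPM in controls and 8.36, 5.05 and 3.36 CPM in mutants. The genotypes did not overlap at either stage. The stage-adjusted log2 fold change was -1.29 (SE 0.30, edgeR adjusted p = 0.0207), and it was called in 19 of 19 alternatives, with adjusted p from 0.000615 to 0.0476. Cav3 had the highest level of the list, 39.0 RPKM, and Pex5l the lowest, 0.107 RPKM.

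None of the 10 pacemaker transcription factors was called between genotypes at E11.5, at E12.5 or adjusted for stage. Their levels ran from 2.25 RPKM for Isl1 to 55.9 RPKM for Nkx2-5, and their median stage-adjusted log2 fold change was -0.16, against 0.00 for all genes.

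Of 19 genes for cyclic AMP and autonomic input, 18 were tested. Adora1, the adenosine A1 receptor that slows the node, had 8.14, 9.35 and 5.87 CPM in controls and 12.0, 12.4 and 11.7 CPM in mutants at E11.5, and 10.8, 7.78 and 11.3 against 18.7, 13.6 and 19.3 CPM at E12.5. The genotypes did not overlap at either stage. The stage-adjusted log2 fold change was 0.71 (SE 0.14, edgeR adjusted p = 0.00808) and that at E12.5 0.78 (SE 0.18, adjusted p = 0.0331). Adora1 was the only gene of the list called in the stage-adjusted model, and its call there was lost in limma, where its log2 fold change was 0.56. At E12.5 the call was lost in 6 of 14 alternatives, with adjusted p from 0.00214 to 0.109.

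Pde4b, a cyclic AMP phosphodiesterase, had a log2 fold change of -0.43 at E12.5 (SE 0.11, edgeR adjusted p = 0.0464), under the fold threshold. The highest level was that of Gnas, 271 RPKM, and the lowest that of Adcy8, 0.0887 RPKM. No gene of the 5 lists had an adjusted p of at most 0.05 at E11.5.

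**Figure D5:**
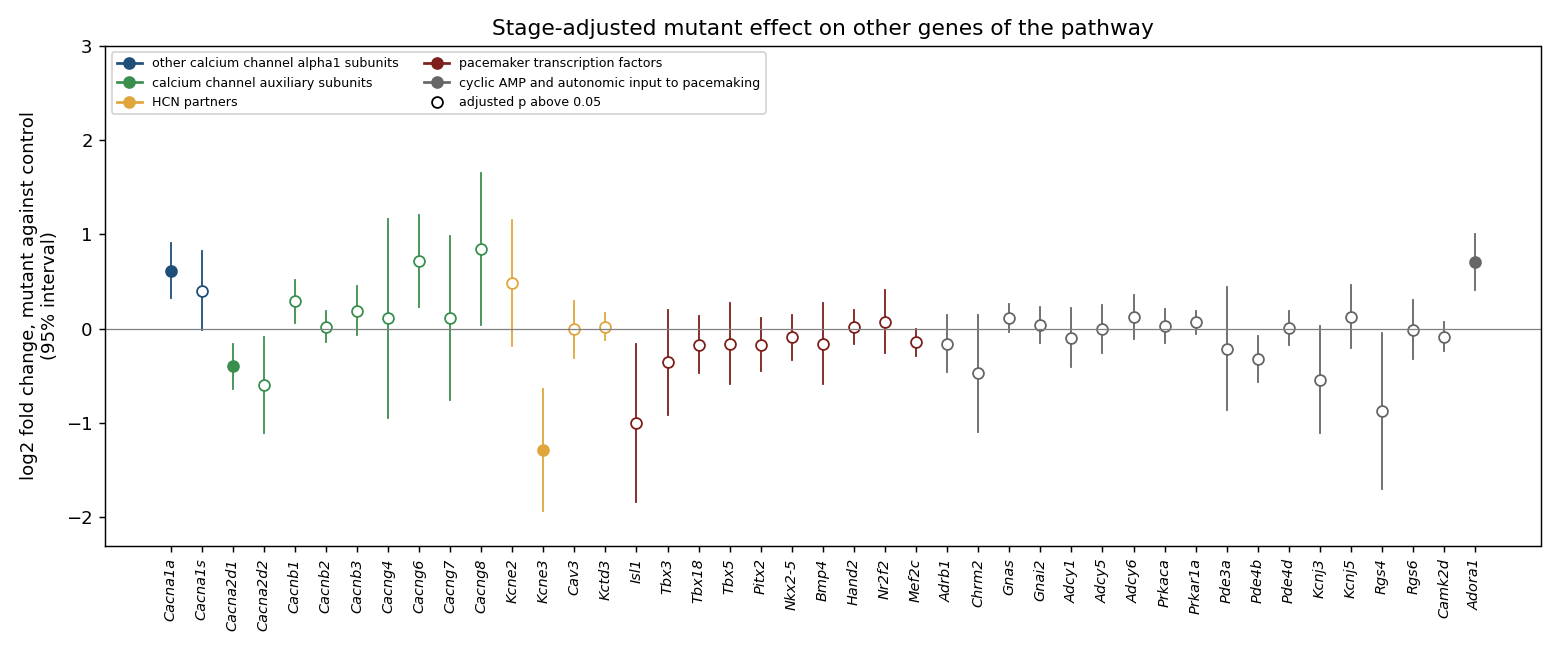
Stage-adjusted log2 fold change, mutant against control, with its 95% interval, for every tested gene of the 5 other pathway lists. Filled points have an adjusted p of at most 0.05: Cacna1a and Adora1 are higher at 0.62 and 0.71, and Cacna2d1 and Kcne3 lower at -0.40 and -1.29, while all other points are open.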

How the data were processed

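RNA-seq of whole embryonic hearts was analysed at E11.5 and E12.5, with 3 Cre controls and 3 mutants at each stage. The authors sequenced paired-end reads and aligned them with BOWTIE (the submitters' processing notes name Bowtie2, DESeq and mm10). The counting program, annotation and use of strand are not given in the sources used here. The authors deposited a table of score values named RPKM, which are whole counts multiplied by a gene length and a library factor, and, per genotype comparison, expected counts in the form of the average count of each group. Their fold changes and p-values were not used. The raw counts were recovered from both tables for 17827 genes with reads, all within 4.07e-10 of whole numbers. True RPKM was computed from these counts and the lengths.

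The main test was edgeR 4.0.16 (quasi-likelihood, TMM, R 4.3.3) on all genes whose RPKM averaged 0.5 or more across the hearts compared, with Benjamini-Hochberg adjustment over all genes tested. Calls needed an adjusted p no higher than 0.05 together with a 1.5-fold or larger change, or the adjusted p alone for the difference between stages. limma 3.58.1 used log2(RPKM + 0.5), and DESeq2 1.42.0 was an alternative. Data were simulated for the E12.5 comparison, with 12257 genes, 200 of them changed. In these data 95 genes changed 2-fold, 98 changed 4-fold and 2 unchanged genes were called. Every simulated gene had the same dispersion between hearts. The recovery therefore does not carry over to genes with a wide spread or to E11.5. The named genes include all 8 members and the 3 genes most like Hcn4 and Shox2 over the hearts. Of 5 pathway lists, genes are named with an adjusted p of at most 0.05 in a genotype comparison or the highest or lowest level. The 3 genes most like Hcn2 were added after their values were seen. Single genes of the cell type marker lists are also named, although these lists were planned only as sums and counts called. The 8 members were taken by symbol with no measured threshold. The members and lists were chosen with earlier results of these data known, so the p-values are not independent support. Labels do not state separate litters, and p-values measure the spread between hearts. Intervals cover that spread, and reads without molecular identifiers are not independent molecules. The offsets for length and GC were chosen after seeing the data. The ChIP-seq, the qRT-PCR and 2 genes of the pathway lists are not reported here.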

Additional observations from a re-analysis of the deposited data

How the results depend on the processing

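The members and genes called depended on the settings. At E11.5, 14 genes were called, and 73 without the filter, 6 at a mean RPKM of at least 5, 248 in DESeq2, 73 with the replicate block, 29 with sex as a covariate, 78 with length and GC offsets (chosen after seeing the data), 221 with all 12 hearts in one fit and 0 to 15 with 1 heart left out. The 1 member called there, Hcn2, became 0 at a mean RPKM of at least 5, in limma and in every fit with 1 heart left out (0 to 0). At E12.5, 362 genes and 0 members were called, and 157 genes at a mean RPKM of at least 5, 613 without the fold threshold, 132 genes and 1 member with all 12 hearts in one fit, 1 member without the filter, and 151 to 368 genes and 0 to 1 members with 1 heart left out. Adjusted for stage, 395 genes and 1 member were called, and 120 genes and 0 members at a mean RPKM of at least 5, 840 genes without the fold threshold, and 0 to 1 members with 1 heart left out. The difference between stages called 0 genes in edgeR, 41 in DESeq2 and 0 to 10 with 1 heart left out. Between stages in controls, 647 genes and 3 members were called, and 363 and 1 at a mean RPKM of at least 5, 19 and 1 with sex as a covariate, 332 genes with length and GC offsets, 336 with all 12 hearts in one fit, 1402 without the fold threshold, and 44 to 1406 genes and 0 to 5 members with 1 heart left out.

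With sex as a covariate, E11.5 mutant log2 fold changes turned to -0.33 for Hcn4, -0.082 for Cacna1c, -0.12 for Cacna1d and -0.017 for Cacna1h. The E11.5 fit with sex rests on mutant 3, the only male mutant, against the 3 male controls. That heart had the lowest total count, 11994148, and its longest genes lay 0.23 below the group mean on the log2 scale. The stage-adjusted value of Cacna1c turned to -0.10. The difference between stages turned to 0.015 for Cacna1d and 0.078 for Cacna1h. The stage effect of Cacna1g in controls turned to -0.12 (-0.14 with length and GC offsets). That fit with sex rests on E12.5 control 3, the only male of its group. None of these was called in either fit. With 1 heart left out, the genotype effect ranged from -1.33 to 0.10 for Cacna1g at E11.5, and at E12.5 from -0.18 to 0.29 for Hcn4, -0.061 to 0.25 for Cacna1d, -0.33 to 0.013 for Cacna1g, -0.10 to 0.19 for Cacna1h and -0.96 to 0.21 for Shox2. Adjusted for stage it ranged from -0.065 to 0.18 for Cacna1c, the difference between stages from -0.97 to 0.063 for Hcn2 and -0.30 to 1.13 for Cacna1g, and the stage effect of Cacna1g from -0.14 to 1.17. The cause of these changes was not tested.

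Whether replicate numbers pair the hearts was not settled. Correlations of same-numbered hearts were -0.029, 0.425 and 0.293 at E11.5 and 0.0233, 0.0585 and 0.0227 at E12.5. At both stages the best match was the same number for replicates 2 and 3, and number 3 for replicate 1. With the replicate block Hcn2 had a log2 fold change of 2.68 adjusted for stage (edgeR adjusted p = 0.000817). Depth limits Hcn2, Hcn3 and Shox2, with 2 to 14 reads per control heart for Hcn2.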
